A study of Mus musculus with 6 samples.

Results

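The regions described here are stretches of open chromatin inside gene bodies that were strong in wild-type mouse cardiac fibroblasts and also present after loss of Acta2, which encodes smooth muscle α-actin. They were chosen from the peaks of the wild-type (WT) ATAC-seq library on chromosomes 1 to 19. A peak was kept when it was under 3000 bases wide, had a fold enrichment of at least 10, overlapped a peak of the knockout (KO) library by at least 1 base, and had its summit inside a gene and more than 5 kb from the start and end of every gene in the deposited table. Of 123935 WT peaks, 6418 met this rule, and the KO list held 121748 peaks. The fold enrichment is the pileup of sequenced fragments at the summit over the background of that library. Since the WT fold chose the members, their WT folds are a description and are not tested.

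ATAC-seq was done on 1 KO and 1 WT library of 10000 cells each, and RNA-seq on 2 KO and 2 WT libraries. Per the labels, cardiac fibroblasts of WT mice and of Acta2fl/fl mice were both transduced with an adenoviral Cre and kept with TGF-β for 2 days. On this route the WT cells also received Cre and the cytokine. The labels of every sample also describe tamoxifen to activate MerCreMer (75 mg per kg daily, 5 days, begun at 6 weeks of age), ligation of the left coronary artery at 9 weeks of age, a further course of tamoxifen around the infarction, and sorting of eGFP+ fibroblasts traced by Tcf21. They do not say which of these routes each library came from, nor whether the 2 RNA libraries of a genotype came from separate animals or cultures, so p-values here reflect only how these libraries vary, which may be technical. With 1 ATAC-seq library per genotype, no difference between the peak lists has a replicate check.

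ATAC-seq uses the Tn5 transposase to cut and tag DNA that is not wrapped tightly in nucleosomes, so its peaks mark promoters, enhancers and other regulatory DNA. Strong peaks far inside a gene often lie in introns. Such elements can be enhancers of the gene that holds them, enhancers of a neighbour, internal promoters of shorter transcripts, or binding sites of architectural proteins. In activated fibroblasts, enhancers are known for binding AP-1 (dimers of FOS and JUN proteins), TEAD factors with their coactivators YAP and TAZ, and RUNX factors. Cardiac fibroblasts turn into contractile, matrix-making myofibroblasts when injured or exposed to TGF-β.

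The first set of sequences gives 151 bases around the summit of the 5 members with the highest WT fold. They are shown because the same 5 rank first among the members in both libraries. Their shares of repeated words are given below, and the part of repeats in their folds was not tested. No window in this set held the AP-1 motif, so all bases are in lower case. All sequences are from the RefSeq copy of GRCm38 (mm10), on the plus strand, 5′ to 3′, with the summit at the middle base.
Zc3h7a, chr16:11144025-11144175: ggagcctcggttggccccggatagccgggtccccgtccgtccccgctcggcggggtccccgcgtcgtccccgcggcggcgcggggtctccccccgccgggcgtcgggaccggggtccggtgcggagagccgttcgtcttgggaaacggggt
Cmss1 and Filip1l, chr16:57391448-57391598: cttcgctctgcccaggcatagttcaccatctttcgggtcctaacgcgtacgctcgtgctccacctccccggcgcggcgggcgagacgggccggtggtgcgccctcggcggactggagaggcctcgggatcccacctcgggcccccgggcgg
Cdk8, chr5:146261085-146261235: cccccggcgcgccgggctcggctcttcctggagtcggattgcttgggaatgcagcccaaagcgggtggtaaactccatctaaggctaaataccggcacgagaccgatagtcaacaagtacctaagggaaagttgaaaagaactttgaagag
Tmem267, chr13:119601998-119602148: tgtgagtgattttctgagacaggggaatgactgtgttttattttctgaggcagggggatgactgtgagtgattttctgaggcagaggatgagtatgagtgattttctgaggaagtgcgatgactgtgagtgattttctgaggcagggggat
Gphn, chr12:78350946-78351096: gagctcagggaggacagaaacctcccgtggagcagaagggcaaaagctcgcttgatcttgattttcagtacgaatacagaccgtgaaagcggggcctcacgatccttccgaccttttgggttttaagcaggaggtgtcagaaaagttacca

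The second set gives the same window for the strongest member of 6 genes from lists of TEAD-related genes, integrins and mesenchymal transcription factors. These genes were picked because that member held AP-1 (TGANTCA, searched on both strands), so the motif in each window follows from the choice. AP-1 is shown because it had the highest share of members among the motifs searched in 300 bases, 27.2%, though not in 100 bases. The share that each motif would reach by chance was not counted, so this order does not rank the factors. The motif is in capitals.
Rbms3, chr9:117571387-117571537: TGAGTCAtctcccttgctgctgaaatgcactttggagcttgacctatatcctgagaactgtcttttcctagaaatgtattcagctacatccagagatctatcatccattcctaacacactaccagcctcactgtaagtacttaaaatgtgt
Itga5, chr15:103358652-103358802: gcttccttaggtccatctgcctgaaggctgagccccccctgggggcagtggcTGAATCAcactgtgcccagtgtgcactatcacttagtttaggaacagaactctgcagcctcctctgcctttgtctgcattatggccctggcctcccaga
Twist2, chr1:91816693-91816843: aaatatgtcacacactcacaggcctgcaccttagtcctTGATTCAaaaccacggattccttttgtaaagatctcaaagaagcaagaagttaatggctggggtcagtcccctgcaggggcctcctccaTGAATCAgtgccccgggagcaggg
Meis1, chr11:18988951-18989101: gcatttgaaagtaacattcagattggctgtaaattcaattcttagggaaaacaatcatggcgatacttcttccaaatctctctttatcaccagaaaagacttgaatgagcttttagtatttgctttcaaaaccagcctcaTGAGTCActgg
Tead4, chr6:128282345-128282495: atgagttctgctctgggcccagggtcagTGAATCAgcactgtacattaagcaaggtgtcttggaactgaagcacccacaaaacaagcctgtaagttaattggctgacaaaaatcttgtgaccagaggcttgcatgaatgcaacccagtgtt
Zeb2, chr2:45049387-45049537: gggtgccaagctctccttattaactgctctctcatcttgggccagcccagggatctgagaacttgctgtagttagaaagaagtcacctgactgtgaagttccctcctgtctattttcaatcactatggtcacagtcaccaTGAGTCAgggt
In the Rbms3, Meis1 and Zeb2 windows the motif lay at the edge of the printed stretch, with its centre -72, 68 and 68 bases from the summit. In Itga5 and Tead4 it lay -20 and -44 bases from the summit, and the Twist2 window held 2 copies, at -34 and 55 bases. The windows of the first set lay in introns, 32293 bases from the start site of Zc3h7a, 29930 from that of Cdk8, 114034 from that of Tmem267, 124642 from that of Gphn and 38430 from the nearer start of Cmss1 and Filip1l. Those of the second set lay in introns as well, 301122 bases into Rbms3, 8036 into Itga5, 15307 into Twist2, 29959 into Meis1, 18403 into Tead4 and 67933 into Zeb2.

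Acta2, the targeted gene, had 255.96 and 265 CPM (estimated counts scaled to library size) in the KO RNA libraries against 2186 and 2200 in WT, -3.07 in log2 fold change with an SE of 0.030 (adjusted p = 1.59e-32, edgeR quasi-likelihood test). The RNA libraries held 8429166 to 11370115 estimated counts. All 12 fibroblast markers were above the filter on low counts, and their summed level was 4619 and 4595 CPM in the KO libraries against 5970 and 5854 in WT, with 8 of 12 called lower and 1 called higher. Macrophage and leukocyte markers summed to 177 and 179 CPM in the KO libraries against 102 and 97.9 in WT, with 6 of the 8 tested called higher. Endothelial markers summed to 144 and 157 CPM in the KO libraries against 115 and 110 in WT. Of the 9 tested, 7 were called higher and 1 lower. These calls are by edgeR, which called 18.3% of all 12192 tested genes higher and 17.4% lower. By DESeq2, another test, 7 fibroblast markers were lower and 0 higher, and 5 macrophage and leukocyte markers were higher and 0 lower. It called 3 endothelial markers higher and 1 lower, beside 7.89% higher and 8.99% lower of all tested genes. Of 10 cardiomyocyte markers, 7, among them Myh6, Myh7 and Ryr2, were at 3 estimated counts or fewer in every library. In bulk samples, fewer cells of a type and less RNA per cell cannot be told apart. The part of these markers in the results below was not tested.

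In place and shape the members were compact intronic peaks. Summits lay in an intron for 5793 members (90.3%), in a non-coding exon for 362 and in a coding exon for 262, and 1 host was not matched to GENCODE M21. The median member was 1452 bases wide and lay 49743 bases from the start site of its host, 47.9% of the way along it. Its GC content was 50.7% in the 300 bases around the summit, against 63.3% for strong shared peaks within 5 kb of a gene start or end. A median of 7% of the 300 bases was masked as repetitive in the reference.

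The WT folds of the members ran from 10.3 to 366, with a median of 13.1 and the middle 50% between 11.5 and 16.02. Their KO partners, the KO peaks sharing most bases with them, had folds of 2.98 to 279 and a median of 14.9. A KO fold of at least 10 was found for 5556 members (86.6%). Of the 6431 WT peaks that met every other part of the rule, only 13 had no KO peak at all. At the edge of the rule, 586 members had the lowest fold that passed, 10.27, with a median KO fold of 11.1. The 700 gene-body peaks just below it, at a WT fold of 9.86, had a median KO fold of 10.6. Just inside, the members in Sulf1, Ncoa2 and Tram2 had KO folds of 22.1, 13.6 and 9.78, and just outside, the peaks in 4931428L18Rik, Aff3 and Dnah7c had 19.1, 11.9 and 8.08. Folds in the lists came in whole steps of 0.411 in WT and 0.425 in KO, with a tolerance of 0.05 of a step. A fold of 10 is about 24 such steps. If the caller adds 1 fragment to the pileup, that is 23 fragments, with a Poisson 95% interval of 14.6 to 34.5, which covers counting error only. A difference within that interval was not detectable at this depth. A difference beyond it may not be either, since it carries the error of both counts. The interval holds at a fold of 10 only.

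The KO to WT ratio of the folds had a median of 1.08, with the middle 50% between 0.918 and 1.26 and the extremes at 0.225 and 2.55. An equal number of steps gives a ratio of 1.03, and 3569 members lay above that value. The median over all 92117 shared peaks of these chromosomes was 1.13. A KO fold at least 1.5 times the WT fold was seen in 456 members (7.11%), beside 15.4% of all shared peaks. A WT fold at least 1.5 times the KO fold was seen in 343 members (5.34%), beside 4.48% of all shared peaks. Choosing by the WT fold favours peaks whose WT value is high by counting error, so nothing is read from these shares. When the same rule was applied with the KO fold, 8575 KO peaks met it, and their median KO to WT ratio was 1.23. The ratio thus moved with the library that chose the peaks.

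In rank, the members had a median place of 17336 in the WT list, within its top 13.99%, and of 17471 in the KO list, within its top 14.4%. The last member in WT stood within the top 20.95% of that list, and 4809 members (74.9%) stood within the same share of the KO list. The lowest KO partner stood at rank 118982 of 121748. WT and KO folds correlated over the members with a Spearman coefficient of 0.667, as a description over peaks that share 2 libraries and are cut on 1 of the folds. Positions were closely shared. The WT and KO summits lay a median of 59 bases apart, 4266 members (66.5%) had them within 100 bases, and 5948 (92.7%) shared at least 50% of both peaks. The median distance between summits was 127 bases for the 26847 weaker shared peaks inside genes.

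**Figure D1:**
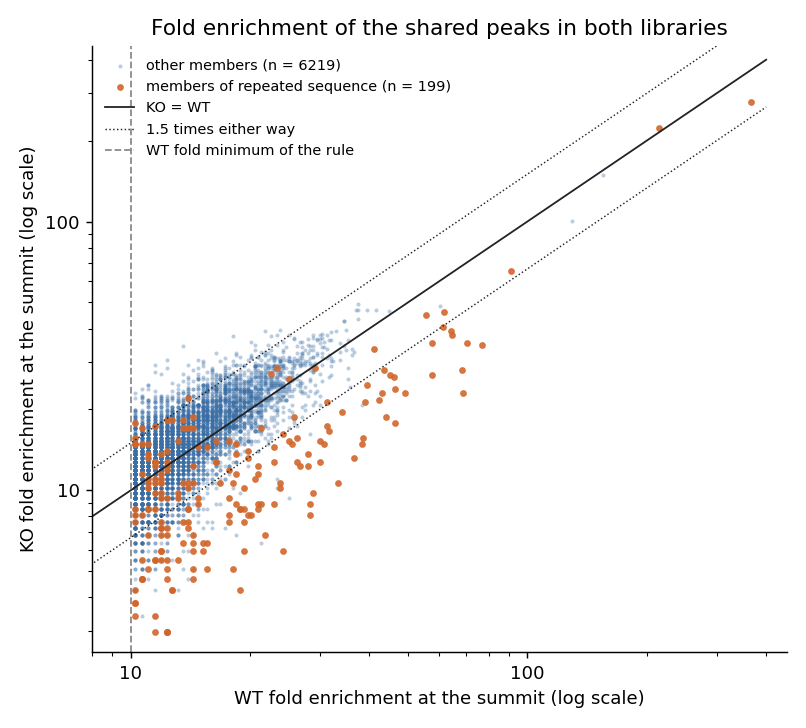
Fold enrichment of each of the 6418 members in the WT library (horizontal, log scale) and of its partner in the KO library (vertical, log scale), with lines at equality and at 1.5 times either way. The 199 members of repeated sequence (orange) lie mostly under the line of equality, with a median ratio of 0.588, while the other 6219 (blue) have a median ratio of 1.09.

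The top of the members was the same in both libraries. The 5 members of highest WT fold were also the 5 of highest KO fold. The member in Zc3h7a (chromosome 16, 11143891 to 11144321) had a fold of 366 in WT and 279 in KO and stood at rank 7 and 6. The member shared by Cmss1 and Filip1l had 214 and 224, that in Cdk8, a kinase of the Mediator complex, 155 and 149, that in Tmem267 129.8 and 100.7, and that in Gphn, the gene of the receptor anchor gephyrin, 91.2 and 65.5. After these, the lists diverged. The next WT folds were 76.8 in Slc15a5, 70.7 in Unc80, 69.01 in L3mbtl4, 68.6 in Cd200r3 and 64.5 in Rab30, and their KO folds were 34.9, 35.3, 23.0, 28.1 and 37.8. All 5 windows were fully masked as repetitive. Of the first 5, those of Zc3h7a, of Cmss1 and Filip1l and of Gphn had 91.1%, 63.3% and 64.1% of their 31-base words elsewhere on the main chromosomes. Those of Cdk8 and Tmem267 had 23.3% and 43.7%. Copies absent from those chromosomes were not counted. The Tmem267 window was 96.3% masked, and the other windows of the first 5 were 0% masked. The next KO folds were 49.3 in Rnf14, a ubiquitin ligase gene, 48.5 in Camk1d, a kinase gene, and 46.8 in each of Hint3, Fpr3 and Impact, with WT folds of 37.4, 60.4, 39.4, 37.4 and 41.5.

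Among these members, chosen by the WT fold, those of repeated sequence had lower KO to WT ratios than the rest. The rule set no KO minimum, so peaks weak in KO could enter and peaks weak in WT could not. The repeated share among peaks chosen by the KO fold was not counted, so no difference between the libraries is read from these values. A window was called repeated when at least 50% of its 31-base words occurred elsewhere on the main chromosomes, which held for 199 members (3.10%). Among the 30 members of highest WT fold 24 were repeated, and among the 30 of highest KO fold 8 were. Of the 29 members with a WT fold over 40, 24 were repeated, against 11 of 55 at folds of 30 to 40 and 55 of 2442 at folds of 10 to 12. The KO to WT ratio of repeated members had a median of 0.588 (middle 50%, 0.439 to 0.819), and that of the other 6219 a median of 1.09 (0.929 to 1.27). Of the 343 members with a WT fold at least 1.5 times the KO fold, 120 were repeated. At least 90% of the window was masked in 146 of the 199, and in 97 the median word occurred at least 100 times. The 5 members of lowest KO to WT ratio were all repeated: those in Agbl4 (18.9 in WT, 4.25 in KO), Cdh12, Grm8 and Ccdc7a (each 12.3 and 2.98) and Khdrbs2 (24.2 and 5.95). Per the labels, only reads with a unique alignment were kept. The repeated share was 11.6% among the 6076 strong shared peaks outside genes and 1.54% among the 10881 strong shared peaks near a gene start or end. No member held a word of the mitochondrial genome.

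In the 5 members of highest KO to WT ratio 0% to 23.7% of the words were repeated. They lay in Creb3l2, the gene of a membrane-bound transcription factor (11.5 in WT, 29.3 in KO), Ano1, the gene of a calcium-activated chloride channel (13.6 and 34.4), the ubiquitin ligase gene Mgrn1 (12.3 and 30.6), Radil (11.5 and 27.6), and a stretch shared by Stard13 and Gm42906 (12.3 and 28.5). In the RNA libraries Creb3l2 had 71.1 and 68.0 CPM in the KO libraries against 70.5 and 60.1 in WT, which did not pass the test (log2 fold change 0.09, SE 0.072, adjusted p = 0.325, edgeR). Ano1 had 1.93 and 2.01 CPM in the KO libraries against 1.56 and 1.66 in WT (adjusted p = 0.6003). Mgrn1 had 65.8 and 67.1 CPM in the KO libraries against 49.05 and 49.8 in WT, and it rose, with 0.43 in log2 fold change with an SE of 0.070 (adjusted p = 2.18e-05). Stard13 did not pass the test (adjusted p = 0.727), and Radil was below the filter.

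The 6418 members lay in 3352 genes. A single gene held 6223 of them, and 195 lay where genes overlap. Of the hosts, 1951 (58.2%) held 1 member, 1401 (41.8%) held more than 1, and the 246 hosts with at least 5 held 1671 members, 26.04% of the total. Nearly all hosts, 3345, were protein-coding in GENCODE. Longer genes held more members, with a Spearman coefficient of 0.463 between length and count over hosts, a description in which length sets how much of a gene can lie over 5 kb from its ends.

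The highest counts belonged to very long gene models. Gm20388, a predicted gene of 4434.9 kb on chromosome 8, held 104 members, but its interval contains 81 other genes of the table and 50 of these members lay in another gene as well. Fgfr2, a fibroblast growth factor receptor gene, held 27 in an interval of 2960.9 kb that contains 37 other genes, and 19 of the 27 lay in another gene too. Counts for these hosts describe a model that spans its neighbours. Rbms3, the gene of an RNA-binding protein, came next with 19 members over 1299.8 kb and no other gene inside. The L-type calcium channel gene Cacna1c, the cytoskeletal linker gene Dst, the focal adhesion gene Lpp and the kinase anchor gene Pakap held 14 each, Frmd4a 13, and the transcription factor gene Foxp1 and the RNA-binding protein gene Msi2 12 each. Over all gene entries named Pakap there were 15 members, of which 14 lay in another entry as well. The same held for 8 of the 12 in Foxp1. In Rbms3 the WT folds ran from 10.3 to 26.3 and the KO folds from 6.80 to 26.8, with 7 of 19 members above the equal-step ratio, 2 at it and 10 below, where 55.6% of all members lay above it. In Lpp the ratio ran from 0.611 to 1.58, with 6 of 14 above the equal-step ratio, 1 at it and 7 below.

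Per unit of length, shorter genes stood out. Among hosts of at least 4 members, Aknad1 had the highest density, 9.38 per 100 kb, followed by Tpcn1, an endolysosomal channel gene (9.17), Dagla (8.39), the zinc transporter gene Slc39a14 (8.34), Smad3 (8.09) and Plekhg3 (8.06). Smad3 transduces TGF-β signals from the receptors to the nucleus. Its 9 members, all in introns, spread from 11801 to 100770 bases from the start site (chromosome 9, minus strand, 63646767 to 63757994). The strongest in WT, at 63677034 to 63678663, had a fold of 18.5 in WT and 19.1 in KO, and the strongest in KO, at 63700925 to 63703592, had 16.4 in WT and 24.2 in KO. The RNA of Smad3 was 17.5 and 18.6 CPM in the KO libraries against 18.2 and 18.9 in WT, and it did not pass the test (log2 fold change -0.04, SE 0.125, adjusted p = 0.835, edgeR). The 2 genotypes overlapped in Smad3 RNA.

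**Figure D2:**
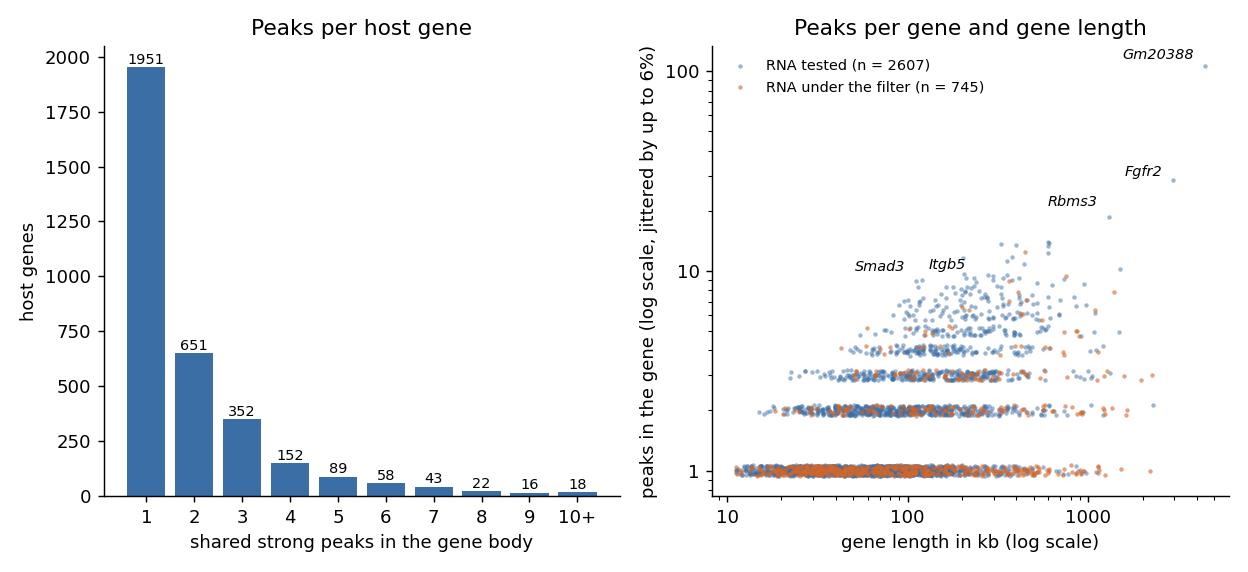
Left, number of host genes (bars) by the number of members they hold, from 1951 genes with 1 member to 18 genes with 10 or more. Right, members per gene (log scale, jittered) against gene length in kb (log scale) for the 2607 hosts with tested RNA (blue) and the 745 below the filter (orange), with Gm20388, Fgfr2 and Rbms3 at the upper right and the shorter Smad3 and Itgb5 marked.

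A part of the members lay at internal transcript starts. The rule kept summits away from the outer ends of genes, but 1137 members (17.7%) had a GENCODE transcript start within 1000 bases, 969 of them a start of the host and 168 a start of a gene outside the table. The share was 9.43% for the weaker shared peaks inside genes and 78.3% for strong shared peaks near a gene start or end. It was 12.7% at WT folds of 10 to 12, 37.8% at folds of 20 to 30 and 6.90% over 40, where there were 29 members. Members at such starts had a median GC content of 56.7% against 49.7% for the other 5281. The GC-rich motif of SP1 and KLF factors (GGGCGG) occurred in 33.0% of them and in 8.01% of the others, and AP-1 in 14.7% and 29.9%. Their folds had a median of 14.4 in WT and 17.0 in KO, with a ratio of 1.11, and the others 12.7, 14.5 and 1.07. The strongest member of Tpm1 lay 17 bases from such a start, that of Cda 88 bases, and the only members of Mbnl1 and Csrp1 36 and 169 bases. This comparison was chosen after seeing the data.

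The share of members with AP-1, TEAD or RUNX letters was closer to that of strong shared peaks outside genes than to that of peaks near gene ends. The letters searched, on both strands of the 300 bases around the summit, were TGANTCA for AP-1, GGAATG for TEAD, TGTGGT for RUNX, CAGCTG for the E-box of TCF21 and TWIST type, GGGCGG for SP1 and KLF, CCGGAAG for ETS and AGATAA for GATA. None of these contains another. AP-1 was found in 27.2% of the members, 28.7% of strong shared peaks outside genes, 23.3% of weaker shared peaks inside genes and 8.42% of strong shared peaks near a gene start or end. TEAD was found in 23.7%, 24.7%, 22.2% and 12.8% of the same classes, and RUNX in 23.4%, 22.8%, 24.6% and 13.4%. The E-box stood at 23.7% in the members against 21.1%, 21.3% and 18.9%. SP1 and KLF stood at 12.4%, 9.87%, 6.13% and 47.5%, and ETS at 2.60%, 2.49%, 1.76% and 10.2%. The motif of CTCF, an architectural protein, was in 2.65% of the members and 3.68% of the weaker gene-body peaks. The CArG box of SRF, which with its actin-regulated coactivators MRTF-A and MRTF-B drives contractile genes, was in 1.48% of the members, 2.04% of strong peaks outside genes, 1.46% of weaker gene-body peaks and 0.864% of those near a gene start or end. Without repeated members the AP-1 share was 27.9%. It was 28.6% at WT folds of 10 to 12, 19.6% at 20 to 30 and 6.90% over 40. These shares are descriptions without a test, and a match is not a bound site.

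**Figure D3:**
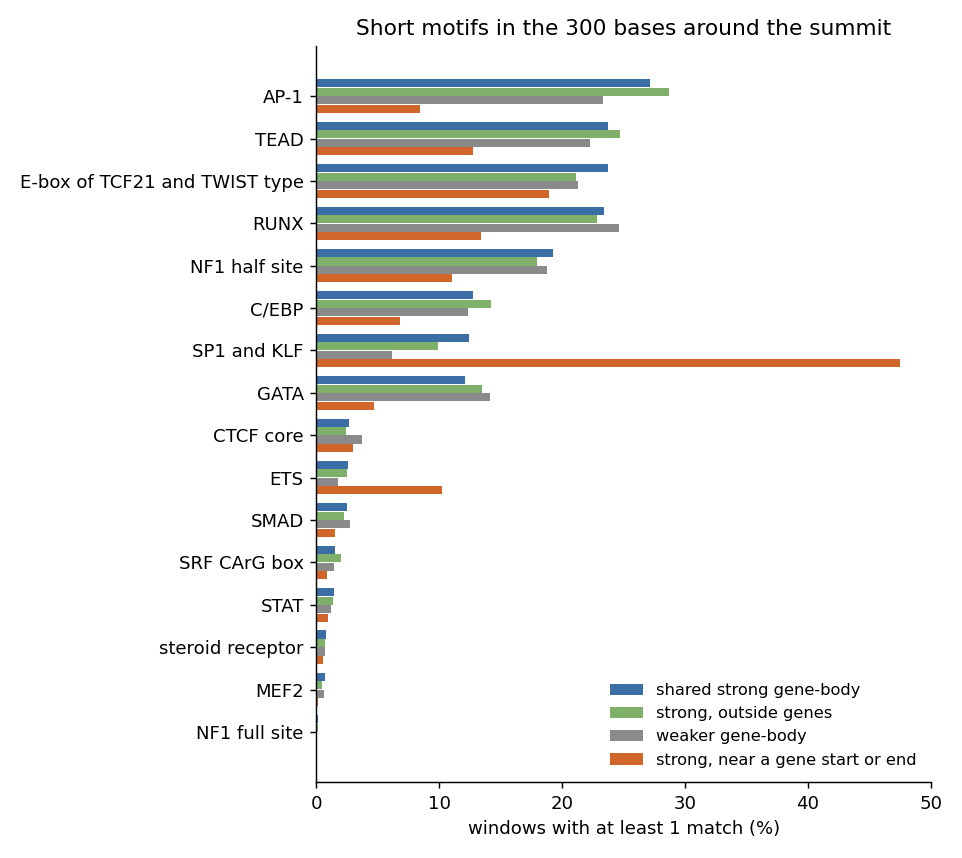
Share of 300-base windows with at least 1 match to each short motif (horizontal bars, %) in the 6418 members and in 3 other classes of shared WT peaks. AP-1, TEAD and RUNX matches are found in 23.4% to 27.2% of the members and in 8.42% to 13.4% of peaks near a gene start or end, where SP1 and KLF reach 47.5%.

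AP-1 matches were densest beside the summit of the members and sparser under it. Per 1000 windows and base there were 0.571 matches within 50 bases of the summit, 1.38 at 50 to 150 bases, 1.26 at 150 to 300 and 0.357 at 300 to 500. In steps of 25 bases the density was highest, at 1.94, in the step that starts 150 bases from the summit. The other classes had the same order between the first and the second zone, with 0.645 and 1.504 for strong peaks outside genes, 0.627 and 1.05 for weaker gene-body peaks and 0.186 and 0.403 for peaks near a gene start or end. RUNX matches in the members were nearly level, at 0.936, 0.975, 0.962 and 0.863 over the same 4 zones. TEAD lay between, at 0.782, 1.02, 0.948 and 0.622. Sparser matches under the summit were not particular to AP-1, since CTCF in the members had 0.0598, 0.113, 0.116 and 0.0763. Over 1001 bases the share of windows with AP-1 was 58.3% in the members, 57.4% in strong peaks outside genes, 47.0% in weaker gene-body peaks and 23.5% near gene ends. In the 6 printed windows with AP-1 the centres lie from -72 to 68 bases.

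**Figure D4:**
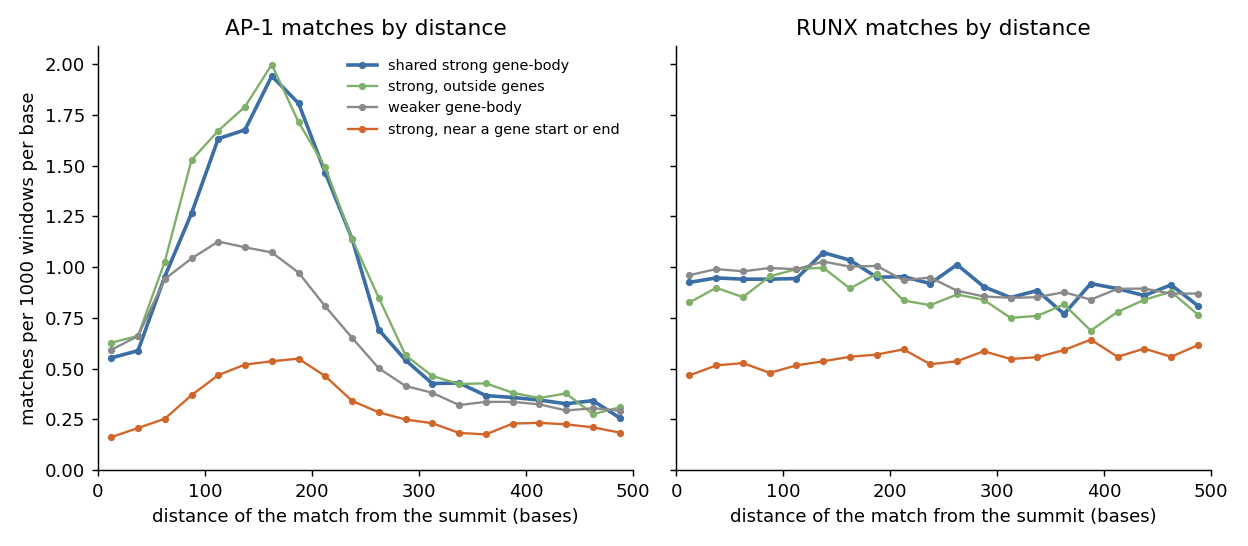
Density of AP-1 (left) and RUNX (right) matches, per 1000 windows and base, by distance from the WT summit in steps of 25 bases for 4 classes of shared WT peaks. AP-1 in the members (thick blue line) rises from 0.553 at the summit to 1.94 in the step starting at 150 bases and falls to 0.259 in the last step, while RUNX stays nearly level.

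The RNA of the hosts was measured independently of the rule. Of 3352 hosts, 2607 (77.8%) passed the filter on low counts, against 42.8% of the other genes of the table. Within genes of 50 to 100 kb the shares were 82.9% of hosts and 64.6% of the others, and over 200 kb 69.6% and 36.3%. Among the tested hosts, 516 were called higher in KO (19.8%) and 424 lower (16.3%) by edgeR at an adjusted p of 0.05, beside 18.3% higher and 17.4% lower of all 12192 tested genes. Both shares are near those backgrounds. The median log2 fold change was 0.02 over tested hosts and 0.00140 over all tested genes. Nor was there a steady order by the number of members. Of the tested hosts with 1 member 20.2% were higher and 15.7% lower, with 2 members 21.8% and 13.9%, with 3 or 4 members 17.4% and 20.7%, with 5 to 7 members 15.2% and 18.7%, and with 8 or more 21.6% and 11.8%. With DESeq2 in place of edgeR, 205 hosts were higher and 236 lower, beside 7.89% higher and 8.99% lower of all tested genes.

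The peaks of hosts called in either direction had similar fold ratios. For tested hosts of at least 3 members, the median KO to WT fold ratio of a gene's members had a median of 1.08 over 110 hosts called higher, 1.07 over 125 called lower and 1.10 over 407 not called. Over these 642 hosts the Spearman coefficient between that ratio and the log2 fold change of the RNA was 0.04, as a description over genes that share the same libraries.

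Il1rl1, the gene of the interleukin-33 receptor, had 3.68 and 3.83 CPM in the KO libraries against 60.1 and 67.1 in WT, the largest fall among hosts, with -4.08 in log2 fold change with an SE of 0.127 (adjusted p = 4.25e-20, edgeR). Both KO libraries lay below both WT libraries. Its member, 15482 bases into the gene on chromosome 1 at 40444597 to 40446954, had a fold of 16.02 in WT and 28.1 in KO, so the peak was higher where the RNA was lower. Cda, the gene of cytidine deaminase, had 17.0 and 13.3 CPM in the KO libraries against 0.240 and 0.664 in WT, the largest rise, with 5.01 in log2 fold change with an SE of 0.315 (adjusted p = 5.38e-13). WT rested on 2 and 6 estimated counts. Its 2 members had folds of 23.4 and 15.2 in WT and of 26.4 each in KO. Mbnl1, which encodes a regulator of splicing, had 425 and 476 CPM in the KO libraries against 112 and 120 in WT, a log2 fold change of 1.96 (SE 0.051), and its member stood at 11.1 in WT and 11.5 in KO. Among the other hosts of the rule, Map3k1, Syt13, Fbxl18, Plvap, Ntn4 and Plcd3 rose by 3.10, 2.33, 2.21, 2.13, 1.88 and 1.70 on the log2 scale. Plvap marks fenestrated endothelium. Of the 9 tested endothelial markers, 7 were called higher and 1, Flt1, lower by edgeR, and 3 and 1 by DESeq2. Of all tested genes, 18.3% were higher and 17.4% lower by edgeR, and 7.89% and 8.99% by DESeq2. The part of these markers in the change of Plvap was not tested. Epha3, Col28a1, Lmtk2, Plekhb1, Kif26b, Slc9a9 and Dhrs3 fell, with log2 fold changes of -2.68, -2.64, -2.25, -2.18, -1.99, -1.67 and -1.61. Of these 7, the members of Kif26b had a median ratio of 0.794 and those of the others 0.983 to 1.35.

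Hosts among contractile and stress fibre genes leaned to higher RNA in KO, as did the whole list. For this and the following lists, the shares over all tested genes were 18.3% higher and 17.4% lower by edgeR. By DESeq2 they were 7.89% and 8.99%. Of all members, 55.6% lay above the equal-step ratio, and counts above or below it rest on 1 library per genotype. Of 31 listed genes, 10 held 22 members, and of these 10 hosts 5 rose and 0 fell by edgeR (6 and 0 at an unadjusted p below 0.05, and 3 and 0 by DESeq2), with a median log2 fold change of 0.20 beside 0.00140 over all tested genes. With a biological coefficient of variation of 0.1 assumed in place of the estimated 0.0311, the calls of Actn1, Myh9 and Tpm1 were lost. Csrp1, the gene of a LIM protein of actin filaments (chromosome 1, 135720061 to 135752232), had 416 and 424 CPM in the KO libraries against 218 and 222 in WT, 0.93 in log2 fold change with an SE of 0.040 (adjusted p = 6.02e-17). Its member had a fold of 12.7 in WT and 16.2 in KO. Ldb3 rose by 1.37 (SE 0.42), the tropomyosin gene Tpm1 by 0.26, the actin crosslinker gene Actn1 by 0.21 and the non-muscle myosin gene Myh9 by 0.20. Palld, which had most members of the list, 5, all 5 below the equal-step ratio, did not pass the test (0.13, adjusted p = 0.071). Cald1, an actin-binding regulator of contraction, had 3 members, 2 above the equal-step ratio and 1 at it, and 1264 and 1249 CPM in KO against 1247 and 1248 CPM in WT (log2 fold change 0.01, adjusted p = 0.790). Over the whole list, hosts included, 22 of 31 genes were higher and 2 lower. Acta2, the targeted gene, was among the lower.

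Of 26 listed focal adhesion and integrin genes, 16 held 66 members, and 9 of these hosts rose and 3 fell by edgeR (6 and 1 by DESeq2), with a median of 0.28. At the assumed coefficient of 0.1, 4 were called higher and 0 lower, and the calls of Fermt2, Itga11, Itgav, Itgb5, Lpp, Ptk2 and Pxn were among those lost. Itga5, the fibronectin receptor chain α5 (chromosome 15, minus strand, 103344286 to 103366763), had 367 and 369 CPM in the KO libraries against 141 and 138 in WT, 1.40 in log2 fold change with an SE of 0.043 (adjusted p = 4.13e-20, edgeR). Its only member, whose sequence with AP-1 is printed above, had a fold of 18.9 in WT and 16.6 in KO. The adaptor genes Bcar1, Pdlim5, Pxn, Lpp and Fermt2 rose by 0.60, 0.41, 0.36, 0.27 and 0.28, Ptk2, the focal adhesion kinase gene, by 0.30, and the integrin genes Itgb3 and Itga11 by 0.79 and 0.38. The integrin genes Itgb5 and Itgav, partners in a receptor that releases TGF-β from its latent form, fell, with log2 fold changes of -0.21 and -0.20. Itgb5 had 122.7 and 122.3 CPM in the KO libraries against 142 and 141 in WT. Its 9 members, over 119.7 kb, had folds of 10.3 to 20.5 in WT and 8.93 to 26.4 in KO, with 2 above the equal-step ratio, 3 at it and 4 below. The hosts Tns1, Tns3, Parva and Dlc1 held 8, 9, 4 and 6 members and had log2 fold changes of 0.03, 0.19, 0.12 and 0.01, which did not pass the test. Of the list as a whole, 16 of 26 genes were higher and 5 lower.

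Matrix and collagen hosts went both ways. Of 31 listed genes, 12 held 31 members, and 2 of these hosts rose and 5 fell. At the assumed coefficient of 0.1 the calls of Col4a1, Col4a2, Fbln2 and Ltbp2 were lost. Col1a2, the α2 chain of type I collagen, had 893 and 882 CPM in the KO libraries against 1227 and 1210 in WT, -0.46 in log2 fold change with an SE of 0.028 (adjusted p = 1.96e-13, edgeR). Its member, 26255 bases into the gene, had a fold of 13.1 in WT and 18.7 in KO. The elastic fibre genes Fbln5 and Fbn1 fell, with log2 fold changes of -0.49 and -0.47, as did Ltbp2 and Fbln2, with -0.39 and -0.10. The basement membrane collagen genes Col4a1 and Col4a2, which held 3 and 5 members, rose by 0.32 and 0.20. Ltbp1, a binder of latent TGF-β, had 5 members, 4 of them above the equal-step ratio, and did not pass the test (0.06, adjusted p = 0.490). In the full list, 3 of 31 genes were higher and 18 lower.

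TGF-β signalling hosts numbered 11 of 26 listed genes, with 31 members, 3 of the hosts rising and 2 falling. The calls of Pmepa1 and Smad1 were lost at the assumed coefficient of 0.1. The ligand gene Tgfb2 had 83.9 and 83.6 CPM in the KO libraries against 46.0 and 44.6 in WT, 0.89 in log2 fold change with an SE of 0.068 (adjusted p = 3.08e-11, edgeR), with a member of fold 12.3 in WT and 13.6 in KO. Among receptors, Tgfbr3 fell by 0.51, while Tgfbr2 (-0.07) and Acvr1 (-0.21) did not pass the test. Among transducers and inhibitors, Smad1 rose by 0.42 and the ubiquitin ligase gene Smurf1 by 0.48, and the feedback inhibitor gene Pmepa1 fell by 0.41. Ldlrad4, a related inhibitor gene with 7 members, stood at 0.18 (adjusted p = 0.398). Among all listed genes, 7 of 26 genes were higher and 6 lower.

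Hosts of the Hippo and TEAD list, 11 of 25 genes with 45 members, had 2 calls in each direction by edgeR (1 higher and 2 lower by DESeq2), and those of Myof, Rbms3 and Wwtr1 were lost at the assumed coefficient of 0.1. Rbms3 had 79.6 and 78.9 CPM in the KO libraries against 94.6 and 93.7 in WT, -0.25 in log2 fold change with an SE of 0.057 (adjusted p = 0.00121, edgeR), and 5 of its 19 members held AP-1. Myof, a membrane repair gene, fell by 0.34, and 4 of its 5 members lay above the equal-step ratio and 1 at it. Wwtr1, which encodes the coactivator TAZ and had AP-1 in 3 of its 4 members, rose by 0.20, and Tgfb2, in this list too, by 0.89. The factor genes Tead1, Tead3 and Tead4 stood at -0.08, 0.18 and 0.58 and did not pass the test. In the list as a whole, 11 of 25 genes were higher and 4 lower. The AP-1 and immediate early list had 5 hosts with 14 members, and 0 of the 4 tested passed in either direction by edgeR, 0 had an unadjusted p below 0.05 and 0 passed by DESeq2. Over the whole list 9 of the 17 tested genes were higher and 0 lower by edgeR (10 and 0 at an unadjusted p below 0.05, and 8 and 0 by DESeq2). Mrtfa, the actin-regulated coactivator of SRF, held 4 members and stood at 0.32 (adjusted p = 0.114).

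Transcription factors of the cardiac mesenchyme held most members of any list, 67 in 17 of 31 genes, and leaned lower in KO, with 2 hosts rising, 9 falling and a median of -0.24 (1 and 5 by DESeq2). At the assumed coefficient of 0.1 the calls of Ebf2, Nfic, Nfix, Runx1, Tcf4 and Zeb1 were lost. Over the whole list 6 of 31 genes were higher and 12 lower, so the lean was not particular to the hosts. Of all tested genes, 18.3% were higher and 17.4% lower by edgeR. Nfia and Nfib, nuclear factor I genes, had 6 and 7 members. Nfia had 39.5 and 38.3 CPM in the KO libraries against 65.5 and 66.5 in WT, -0.76 in log2 fold change with an SE of 0.074 (adjusted p = 3.49e-09, edgeR), with 1 of 6 members above the equal-step ratio, 1 at it and 4 below. Nfib had 88.0 and 92.1 CPM in the KO libraries against 128 and 134 in WT, a log2 fold change of -0.54 (SE 0.054), with 2 of 7 above it, 1 at it and 4 below. Prrx1, Twist2, Tcf4, Zeb1, Ebf2, Runx1 and Nfix fell, with log2 fold changes of -0.56, -0.55, -0.33, -0.26, -0.24, -0.24 and -0.17. Gata4, a cardiac transcription factor gene, had 29.2 and 28.6 CPM in the KO libraries against 16.2 and 13.6 in WT. Its log2 fold change was 0.96 with an SE of 0.120 (adjusted p = 3.28e-07, edgeR). All 3 of its members lay above the equal-step ratio, at 13.2, 14.9 and 19.6 in KO against 10.3, 11.9 and 18.1 in WT. Of all members 55.6% lay above it, and a relation of these peaks to the RNA was not tested. Nfic rose by 0.21. Foxp1, with 12 members, did not pass the test (-0.11, adjusted p = 0.0796). Fibroblast markers summed to a lower level in KO, as given above, beside this list.

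**Figure D5:**
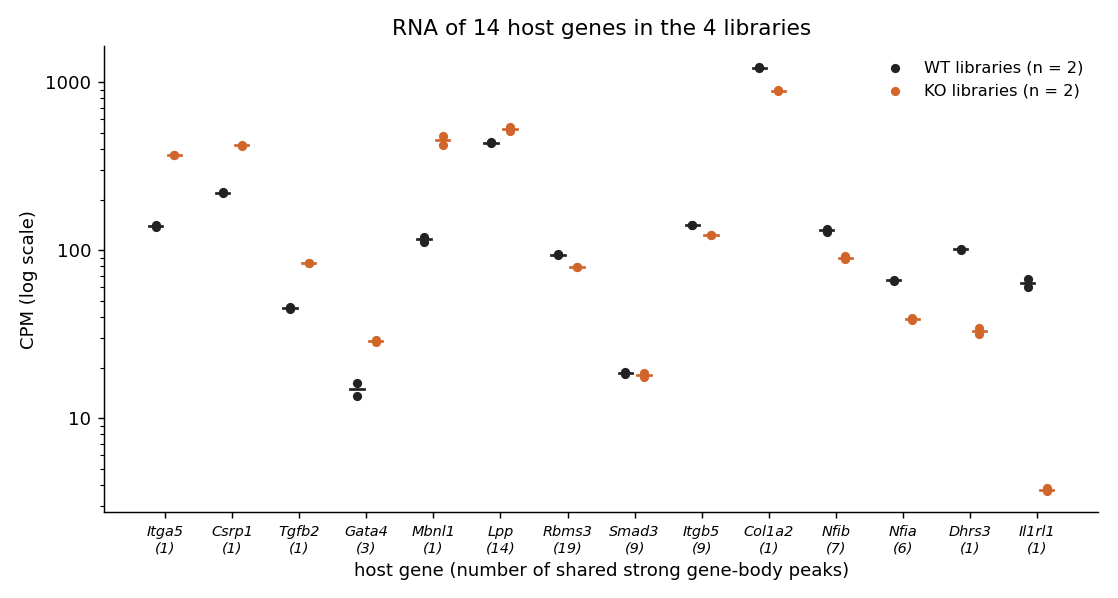
CPM (log scale) of 14 host genes in the 2 WT (black) and 2 KO (orange) RNA libraries, each point 1 library and each short line a group mean, with the number of members in parentheses. Itga5, Csrp1, Tgfb2, Gata4, Mbnl1 and Lpp are higher in both KO libraries and Smad3 overlaps, while Il1rl1, at 3.68 and 3.83 CPM in KO against 60.1 and 67.1 CPM in WT, is the lowest in KO.

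Some hosts with many members had little or no RNA. The 745 hosts below the filter included Syn3, a synapsin gene with 12 members and 1.23, 0.639, 0.839 and 0.442 CPM in the 2 KO and 2 WT libraries, Dlgap2 with 10 members and 0 to 2 estimated counts, and Gm42906 and Gm20696 with 9 and 8. All 8 members of Gm20696 lay in Foxp1 as well, 6 of the 9 of Gm42906 lay in another gene as well, and 1 of the 12 of Syn3 did. Aknad1, the host of highest density, had 0 estimated counts in all 4 libraries, which allows up to 3 counts in each. Its 4 members all lay above the equal-step ratio, as did 55.6% of all members. The neuronal marker Rbfox3 held 6 members and had 0.0876 and 0.0913 CPM in KO and 0 in both WT libraries. Of the endothelial markers, Cdh5, Pecam1, Flt1, Vwf, Tek and Erg held 9 members.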

How the data were processed

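ATAC-seq was read for 1 KO and 1 WT library and RNA-seq for 2 of each. Per the labels' protocols, ATAC-seq reads were trimmed with Trim Galore 0.6, aligned to mm10 with Bowtie2 2.3, freed of duplicates and mitochondrial alignments, and peaks were called with MACS2 separately for each sample without a local background. For MACS2, version and q threshold were not given in the sources used here. The deposited peak lists give a fold enrichment (a ratio), -log10 p and q values and a score as the authors' caller wrote them. RNA-seq reads were aligned with STAR 2.5.3a, per the labels' protocols. These name TPM, but the deposited table holds estimated counts, and for the counter and gene models nothing is given in the sources used here.

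Gene intervals came from that table (25746 genes). A KO partner was the overlapping KO peak with most shared bases. Ranks are by fold. Motifs and 31-base words were counted in 300 bases around each WT summit in the RefSeq GRCm38.p6 sequence. Exons and transcript starts came from GENCODE M21, where 25635 genes matched by identifier and 25471 had the same coordinates. Estimated counts were rounded and tested with edgeR 4.0.16 (R 4.3.3; TMM, filterByExpr with a minimum count of 10, quasi-likelihood test, Benjamini-Hochberg over 12192 genes, threshold 0.05), and scripts were tested on simulated data. CPM are on TMM-scaled library sizes, and an SE is the size of the log2 fold change over the root of F. Tables were made with Python 3.11.15, numpy 2.4.6, pandas 2.3.3 and scipy 1.17.1. Alternatives were DESeq2 1.42.0, other scalings, filters, dispersions, host rules, a replicate block, each library left out, and other peak rules. The labels share replicate numbers between genotypes. Deviations of same-numbered replicates had a correlation of 0.0058 over genes, which cannot tell whether the samples were paired.

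Named peaks were the 10 of highest WT and of highest KO fold, the 5 of highest and of lowest ratio, and 3 on each side of the fold minimum. Named genes were the 10 with most members, the 6 densest with at least 4, the 8 with the highest and the 8 with the lowest log2 fold change among called hosts whose mean log2 CPM was 2 or more, with groups that do not overlap, the 4 untested with most members, and per list up to 3 called hosts of smallest p and 2 with most members. Other list hosts, hosts of named peaks and markers are named with values only. The members and lists were chosen with earlier results of these data known. Members on chromosome 18 (263) have no sequence printed.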

Additional observations from a re-analysis of the deposited data

How the results depend on the processing

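With a fold minimum of 15 there were 2049 members, and applying the minimum to the KO peak gave a median KO to WT ratio of 1.23. Hosts called higher and lower numbered 516 and 424 as reported, 205 and 236 by DESeq2, 235 and 175 with an assumed biological coefficient of variation of 0.1, 48 and 37 with 0.2, 226 and 199 for hosts of 2 or more members, and 241 and 210 for hosts at a fold minimum of 15. The cause of the difference between edgeR and DESeq2 was not tested. The share of host calls that were higher was 54.9% as reported and 46.5% by DESeq2, and over all tested genes 51.3% and 46.7%. Leaving out 1 library gave 382 to 433 higher and 324 to 370 lower. With the replicate number as a block, 518 and 426 were called, and of the named genes Gm20388 was no longer called. Gm20388 and Pakap were not called by DESeq2, nor were Gm20388 without KO replicate 1 or WT replicate 1 and Pakap without KO replicate 1 or WT replicate 2. Of the 54 tested named genes, 11 calls were lost at the coefficient of 0.1 (Gm20388, Rbms3, Lpp, Pakap, Frmd4a, Tpm1, Actn1, Itgb5, Col4a2, Pmepa1 and Myof) and 22 at 0.2. Some genes that were not called changed sign, the cause not tested: Fgfr2 stood at 0.13 without WT replicate 1 and -0.68 without WT replicate 2, Msi2 at -0.07 without KO replicate 1, -0.11 without WT replicate 2 and 0.14 without WT replicate 1, Cald1 at -0.0026 without KO replicate 1 and 0.021 without KO replicate 2, and Ltbp1 at -0.057 without KO replicate 2 and 0.16 without KO replicate 1. Scaling by library size alone moved the median of all genes from 0.00140 to 0.02. In 100 bases in place of 300, where a shorter window holds fewer matches by construction, the shares of members were 4.91% for AP-1, 6.996% for TEAD, 8.24% for RUNX, 0.374% for the CArG box, 0.234% for MEF2, 0.483% for CTCF, 7.401% for the E-box, 4.64% for GATA, 3.93% for C/EBP, 0.0156% for the full and 6.56% for the single-arm NF1 site, 0.654% for ETS, 0.841% for SMAD, 0.405% for STAT, 4.21% for SP1 and KLF, and 0.327% for the steroid receptor motif. Depth limits the folds, since a fold of 10 rests on about 24 steps of the caller.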
